A study of Mus musculus with 4 samples.

Results

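The kinesin motor genes are the 37 genes, of 21090 in the table, whose symbol is Kif followed by a number, with or without a letter. Members were chosen by name and not by value, and 5 genes with related symbols (Kifap3, Kifc1, Kifc2, Kifc3 and Kifc5b) were left out by that rule. They were described in 4 cell lines from a mouse mammary tumor, with 1 library for each. Of the 37 genes, 28 had a mean of at least 1 RPKM (reads scaled to gene length in kilobases and to the library's total) over the 4 libraries and entered the test, namely 11 of 11 mitotic kinesins, 12 of 15 transport kinesins and 5 of 11 others.

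All 4 lines trace to a primary mammary tumor of a mouse with Pik3ca H1047R, which activates the kinase, and Trp53 R270H, both switched on by Cre under the MMTV promoter, so the controls carry both alleles too. The control group was the unmodified 307 cell (called the parental line here) and the 307 cell vector control. The knockout group was the 307 cell with S100a4 edited in exon 3 and the 308 cell with S100a4 edited in exon 2, both after lentiviral delivery of Cas9 with 1 guide and puromycin selection. S100a4 encodes a small calcium-binding protein linked to cell motility. The titles name the exon 2 knockout 308 while the study describes 1 starting line, no source says whether the knockouts were clones, and no source gives an age or a culture time. The libraries of a group are different lines and not replicates of a single line. So p-values measure a spread that mixes differences between lines with technical ones. The parental line, unlike the knockouts, is not described as having had lentivirus or puromycin.

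Between 14728731 and 20569762 reads fell in genes per library. S100a4 was at 3576 RPKM (parental line), 4741 (vector control), 1136 (exon 3 knockout) and 1105 RPKM (exon 2 knockout) (chromosome 3, 90603771 to 90606045, GRCm38). Both knockouts were below both controls, with a log2 change of -1.88 (SE 0.31, limma adjusted p = 0.0731), and the exact permutation p was 0.333, the smallest that 2 libraries against 2 allow. A frameshift need not remove the mRNA, so this level checks the labels only in part. For its knockout lines the study reports truncating mutations in nearly all S100a4 transcripts, and loss of the protein by Western blot. Of the marker genes for the labelled mammary tumor cells, 2 of 6 epithelial markers (Krt8 and Krt18) and 6 of 6 mesenchymal markers had a mean of at least 1 RPKM, while Epcam was between 0.304 and 0.657 RPKM. The mesenchymal markers summed to between 1892 and 3813 RPKM and the epithelial ones to between 34.3 and 129.8 RPKM, and 1 of 4 immune (Cd68), 0 of 3 endothelial and 2 of 5 neuronal markers (Map2 and Tubb3) reached 1 RPKM.

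Kinesins are motor proteins that use ATP to move along microtubules or to take them apart. Mitotic kinesins build the spindle, move chromosomes and complete cell division, and their mRNAs are made mainly late in the cell cycle, under repression at other times by complexes that bind the CHR, a promoter element often paired with CCAAT boxes. Transport kinesins carry vesicles, organelles and ciliary cargo, and many cells use them whether or not they divide.

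The promoters of the mitotic kinesins are shown first because they set this group apart from the other kinesins by sequence. The choice by symbol did not use this property, but the mitotic list within it was drawn up by function. The CHR core was searched as TTTGAA, and the CCAAT box as CCAAT, on both strands, in RefSeq windows (GRCm38.p6) from 250 bases before to 50 bases after each annotated start. Such windows were found for 31 of the 37 kinesins. The stretches below hold a TTTGAA match close to the start, read along the gene's strand, with that match in capitals. In Kif20b another TTTGAA, which starts at base 13, follows directly and is in lower case. TTCAAA is the same core on the other strand.
Kif4: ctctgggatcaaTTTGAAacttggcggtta
Kif11: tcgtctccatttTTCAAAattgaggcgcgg
Kif15: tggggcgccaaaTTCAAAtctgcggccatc
Kif18b: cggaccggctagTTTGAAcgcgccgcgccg
Kif20b: gagccgccattgTTTGAAtttgaaaaccgg
Kif22: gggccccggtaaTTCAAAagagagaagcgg
Kif23: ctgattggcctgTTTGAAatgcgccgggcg

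The stretches are at chrX:100626072-100626101 on the plus strand for Kif4, chr19:37376351-37376380 on the plus strand for Kif11 and chr9:122951050-122951079 on the plus strand for Kif15. Those of the other four are at chr11:102925104-102925133 on the minus strand for Kif18b, chr19:34922353-34922382 on the plus strand for Kif20b, chr7:127042420-127042449 on the minus strand for Kif22 and chr9:61946780-61946809 on the minus strand for Kif23. The first base of the match is 19 bases before the start in Kif11 and Kif15 and 17 before it in Kif22, and at base 2 in Kif23, 3 in Kif18b, 7 in Kif20b and 19 in Kif4, counted from the start.

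TTTGAA was in 9 of 10 windows of mitotic kinesins (90%), in 1 of 13 windows of transport kinesins (7.69%, the neuronal Kif1a) and in 2 of 12 windows of the others (16.7%). It was in 11.6% of the windows of all genes tested and in 17.9% of all windows of this length. Within 20 bases of the start, a distance chosen after the positions were seen, it was in 7 of 10 mitotic windows (70%) against 1.33% of the windows of all genes tested. It was that close to the start in 36.8% of the windows of the mitotic spindle and midzone partners listed below, so the trait is not particular to kinesins. CCAAT was in 6 of 10 mitotic windows (60%), in 4 of 13 transport windows (30.8%) and in 38.2% of the windows of all genes tested. A match describes letters and shows no binding. Kif18a had no TTTGAA in its window, and Kif20a was not among the windows found.

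**Figure D1:**
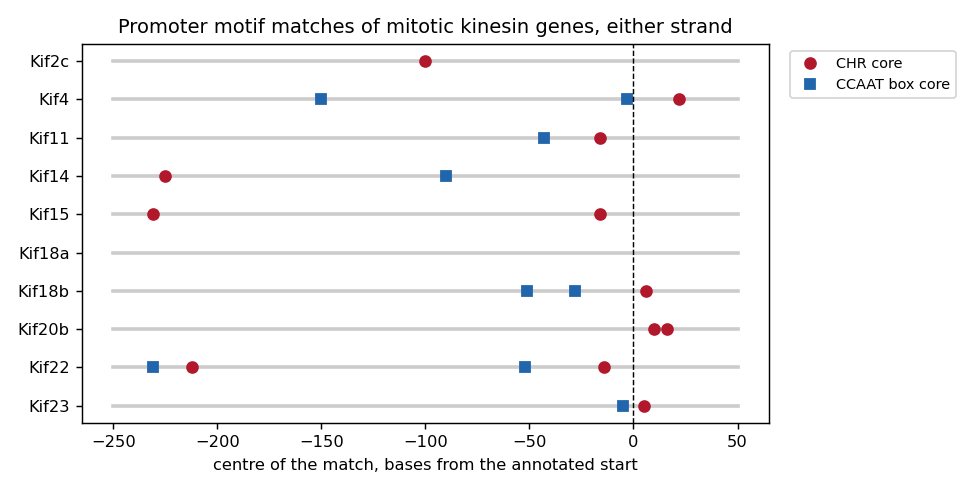
Positions of CHR core (red circles) and CCAAT box core (blue squares) matches, on either strand, in the promoter windows of 10 mitotic kinesins, in bases from the annotated start (dashed line). In 7 of the genes a CHR core match lies within 20 bases of the start, and Kif18a has no match of either kind.

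The kinesin mRNAs ranged widely in level. Kif1c, a transport kinesin of vesicles, and Kif20a, which acts at the spindle midzone in cytokinesis, were among the most abundant. Kif1c was at 64 RPKM (parental line), 55.8 (vector control), 67.4 (exon 3 knockout) and 63.7 RPKM (exon 2 knockout), and Kif20a was at 42.8, 85, 60.8 and 69.9 RPKM in the same order, which is kept for every set of 4 values below. Their ranges overlap, so these neighbours in the order of mean levels did not differ beyond their spread. Kif5b, the kinesin-1 heavy chain found in most tissues, was at 51.7, 73.4, 22.3 and 37 RPKM. Together the 11 mitotic kinesins summed to 164, 268, 191 and 216 RPKM, and the 15 transport kinesins, those under the filter included, to 213, 243, 173 and 182 RPKM. The vector control held the highest sum in both groups.

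**Figure D2:**
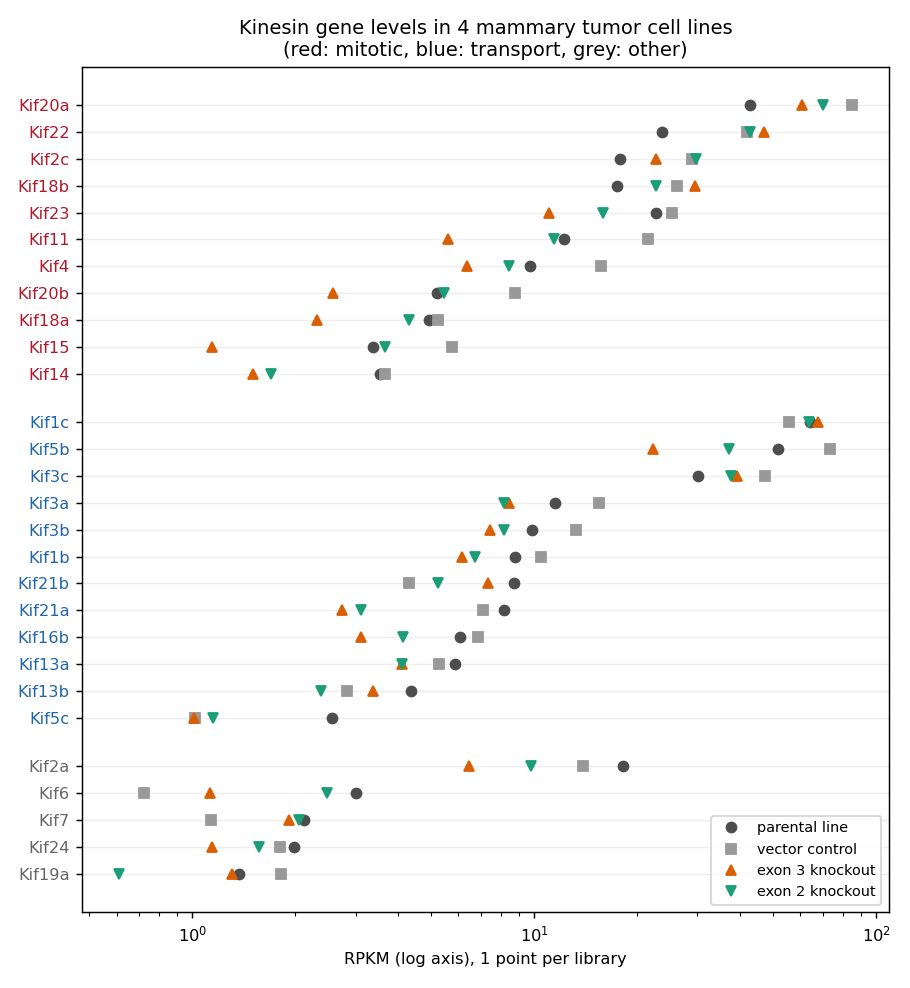
RPKM (log axis) of the 28 tested kinesin genes, 1 point per library, grouped as mitotic (red names), transport (blue names) and other (grey names) and ordered by mean level within each group. The circles and squares (controls) lie to the right of the triangles (knockouts) for Kif5b, Kif21a and Kif14, and Kif22 has its lowest point in the parental line.

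No kinesin passed limma's adjusted threshold of 0.05 for the 2 knockouts against the 2 controls, and of all 10871 genes tested 2 did (0.0184%). At an unadjusted p under 0.05, 6 of 28 kinesins were lower in the knockouts and 0 were higher, against 13.8% of all genes lower and 5.32% higher. The log2 change was below 0 for 19 of 28 kinesins, against 55% of all genes. Their median log2 change was -0.46, against -0.08 for all genes, and it was -0.17 after quantile scaling, -0.21 after a correction for GC content and 0.02, so no longer negative, after a correction for GC content and coding length. Scaling by median ratios moved the median over all genes by 0.10 and quantile scaling moved it by 0.12. In bulk RNA, fewer cells of a type, such as cells in mitosis, and less RNA per cell cannot be told apart. The study reports no effect of the knockout on proliferation against the parental line, from live imaging of confluence. That assay does not count cells in mitosis.

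The knockout libraries lay below both controls, in all 4 pairs of 1 knockout and 1 control, for 15 of 28 kinesins (31.2% of all genes did so) and above them for Kif22 (21.9% of all genes). By at least 2-fold in all 4 pairs on the log2(RPKM + 1) scale, 0 kinesins were lower and 0 were higher, against 1.73% and 0.267% of all genes. On the ratio of RPKM with no pseudocount, 2 were lower (Kif14 and Kif21a) and 0 were higher, against 3.29% and 0.423% of all genes. For 0 kinesins did 1 knockout lie above both controls and the other below both, which 7.88% of all genes did.

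Among the mitotic kinesins, 7 of 11 had a log2 change below 0, with a median of -0.68 and a range from -0.93 to 0.50. That median was -0.29 over the members with a mean of at least 5 RPKM, -0.22 without the exon 3 knockout, 0.04 after the GC correction and 0.21 after the GC and length correction. The direction of the group thus turned with both corrections.

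Kif11 is the motor that slides spindle microtubules apart to separate the poles. It was at 12.2, 21.5, 5.58 and 11.4 RPKM. Both knockouts were below both controls, but the exon 2 knockout lay close to the parental line. Its log2 change was -0.93 (SE 0.40, limma adjusted p = 0.244), and it was -1.32 without the parental line and -0.47 without the exon 3 knockout. It was -0.26 after the GC correction and -0.08 after the GC and length correction. Kif15, which can stand in for Kif11 at the spindle, was at 3.37, 5.74, 1.14 and 3.67 RPKM, with the exon 3 knockout lowest and the exon 2 knockout between the controls. Its log2 change was -0.78, which was -0.22 without the exon 3 knockout and 0.11 after the GC and length correction.

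The motors of the midzone and cytokinesis did not all differ in the same direction. Kif23, the motor of the centralspindlin complex, was at 22.8, 25.3, 11 and 15.9 RPKM, with the knockout mean at 56.1% of the control mean and a log2 change of -0.81 that was -0.21 after the GC and length correction. Kif14, which acts with citron kinase in cytokinesis, was at 3.54, 3.67, 1.5 and 1.7 RPKM. Here controls and knockouts each lay close together and apart from each other, and the log2 change was -0.82 (SE 0.36, adjusted p = 0.246), or -0.17 after that correction. Kif20b, also active in cytokinesis, was at 5.21, 8.79, 2.58 and 5.45 RPKM, where the exon 2 knockout lay between the controls, and its log2 change of -0.70 was 0.35 once corrected. Kif20a had the lowest value in the parental line and both knockouts between the controls, with a log2 change of 0.11, which was -0.38 without the parental line and 0.42 once corrected.

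The chromosome-bound and microtubule-end motors differed as well. Kif4, which binds chromosome arms and the midzone, was at 9.73, 15.7, 6.36 and 8.46 RPKM, with both knockouts below both controls and a log2 change of -0.68 that was 0.03 after the GC and length correction. Kif18a, which damps chromosome movements at the metaphase plate, was at 4.92, 5.21, 2.31 and 4.31 RPKM, and its log2 change of -0.53 was 0.36 after that correction. Kif22, another chromosome arm motor, was at 23.7, 41.8, 47.1 and 42.7 RPKM. It was the 1 kinesin with both knockouts above both controls, though the exon 2 knockout was close to the vector control. Its log2 change was 0.50 (SE 0.34, limma adjusted p = 0.435). That was 0.0995 without the parental line and 0.89 without the vector control. It held at 0.45 after the GC correction and 0.51 after the GC and length correction. Kif2c, which takes apart microtubules at centromeres, was at 17.8, 29, 22.7 and 29.7 RPKM and had a log2 change of 0.18 (SE 0.34, limma's adjusted p = 0.795) that was -0.15 without the parental line and 0.41 after the GC and length correction. Kif18b, a motor at the ends of astral microtubules, was at 17.5, 26.1, 29.5 and 22.7 RPKM and had a log2 change of 0.27 (SE 0.33, limma's adjusted p = 0.682) that was -0.0092 without the parental line. For Kif2c and Kif18b the groups overlapped.

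**Figure D3:**
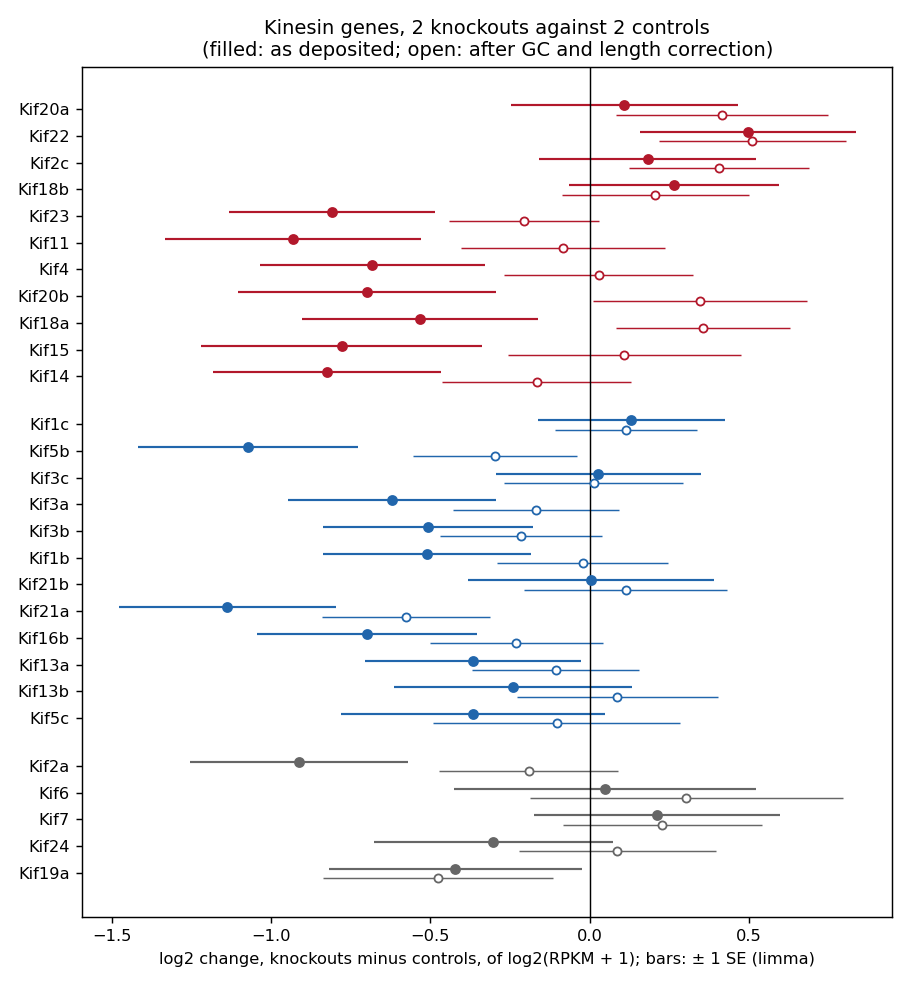
Log2 change of each tested kinesin, knockouts minus controls, on the log2(RPKM + 1) scale, with bars of 1 limma SE (2 libraries per group). Filled points are the deposited values and open points the values after correction for GC content and coding length, and most open points lie nearer to 0 or above it.

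The transport kinesins had a log2 change below 0 in 9 of 12 members, with a median of -0.44 and a range from -1.14 to 0.13. The median was -0.15 after quantile scaling, -0.28 after the GC correction and -0.10 after the GC and length correction. Kif21a, a kinesin-4 that restrains microtubule growth, was at 8.18, 7.09, 2.74 and 3.11 RPKM. Both knockouts were well below both controls, the knockout mean was 38.3% of the control mean, and the log2 change was -1.14 (SE 0.34, adjusted p = 0.141). After the GC and length correction it was -0.58, the most negative of the tested kinesins under that correction.

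Kif5b had both knockouts below both controls, with a knockout mean at 47.4% of the control mean and a log2 change of -1.07 (SE 0.35, limma's adjusted p = 0.16). Without the parental line its log2 change was -1.32. Correction for GC content and length gave -0.30. Kif5c, a kinesin-1 heavy chain enriched in neurons, was at 2.55, 1.01, 1.01 and 1.15 RPKM, so that the parental line alone stood high and the vector control was level with the exon 3 knockout. The neuronal Kif5a was below the filter, with at most 8 reads in a library. Of the 5 neuronal markers, Snap25, Syp and Rbfox3 were at 0 in every library. The other 2 were not, with Map2 at 3.51, 2.44, 0.832 and 1.3 RPKM and Tubb3 at 4.5, 3.14, 5.48 and 3.03 RPKM.

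Most tested members of kinesin-2 and kinesin-3 had a log2 change below 0, and Kif3c and Kif1c lay above it by less than their SE. Kif3a and Kif3b, which pair to carry cargo into cilia, were at 11.5, 15.4, 8.45 and 8.17 RPKM and at 9.84, 13.3, 7.4 and 8.13 RPKM. Both had the knockouts below both controls, with log2 changes of -0.62 and -0.51, which were -0.17 and -0.22 after the GC and length correction. Kif3c, another kinesin-2 motor known mainly from neurons, was at 30, 47.1, 39.1 and 37.7 RPKM, with both knockouts between the controls and a log2 change of 0.03. Kif1b, a carrier of mitochondria and synaptic vesicle precursors, was at 8.78, 10.5, 6.16 and 6.72 RPKM, with a log2 change of -0.51 that was -0.02 after that correction. Kif16b, a motor of early endosomes, was at 6.08, 6.82, 3.1 and 4.12 RPKM, with a log2 change of -0.70 that was -0.23 after it.

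Kif13a, which carries endosomal cargo, was at 5.87, 5.28, 4.09 and 4.1 RPKM, below both controls in both knockouts with a log2 change of -0.37 that was -0.11 after the GC and length correction. Its relative Kif13b was at 4.37, 2.84, 3.37 and 2.38 RPKM, with overlapping groups. Kif21b, the relative of Kif21a, was at 8.72, 4.3, 7.34 and 5.22 RPKM, with both knockouts between the controls and a log2 change of 0.00. Kif1c had a log2 change of 0.13 (SE 0.29, limma's adjusted p = 0.831), which was -0.07 after the GC correction.

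Of the 5 other tested kinesins, Kif2a, a microtubule depolymerizer of spindle poles and neurons, was the most abundant, at 18.2, 13.9, 6.43 and 9.81 RPKM. Both knockouts were below both controls, and Kif2a had a log2 change of -0.91 (SE 0.34, limma's adjusted p = 0.198) that was -0.19 after the GC and length correction. Kif7, a regulator of Hedgehog signalling at the ciliary tip, was at 2.12, 1.13, 1.92 and 2.05 RPKM and had a log2 change of 0.21 (SE 0.39, limma's adjusted p = 0.79). Kif24, which acts at the centriole, was at 1.98, 1.8, 1.14 and 1.56 RPKM. Kif19a, a depolymerizer in cilia, was at 1.37, 1.81, 1.31 and 0.609 RPKM. Kif6, known from motile cilia, was at 3.01, 0.724, 1.12 and 2.47 RPKM, with a wider log2 difference between the controls (-1.22) than any other tested kinesin. The multiciliated cell markers summed to between 0.261 and 1.03 RPKM, and 0 of 4 had a mean of 1 RPKM.

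Of the 9 kinesins under the filter, Kif2b and Kif12 were listed at 0 in every library. The other 7 (Kif1a, Kif5a, Kif9, Kif17, Kif26a, Kif26b and Kif27) reached at most 1.18 RPKM. Kif17, a kinesin-2 of cilia and dendrites, gave 115, 17, 47 and 46 reads. Kif9, a kinesin of motile cilia, gave 39, 25, 30 and 32 reads, and Kif26b, an atypical kinesin, gave 71, 138, 18 and 18 reads. These genes rest on few reads and were not tested.

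The difference went with base composition and, among the mitotic kinesins, with coding length too. Coding GC content had a median of 46.6% over the mitotic kinesins, 50.7% over the transport kinesins and 53% over all genes tested. The median coding length was 2862 bases in mitotic and 3750 bases in transport kinesins against 1388 bases over all genes. Of the 20 kinesins below the median GC content of all genes, 17 had a log2 change below 0, with a median of -0.65, and of the 8 above it, 2 did, with a median of 0.08. For all genes tested the medians were -0.36 below and 0.17 above, so GC content moved with the change beyond the kinesins too. Its part in the kinesin differences was not tested.

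Across the 28 kinesins, the log2 change had a Pearson correlation of 0.702 and a Spearman rho of 0.806 with coding GC content, and across all genes these were 0.458 and 0.484. With log2 coding length, the Pearson correlation of the log2 change was -0.297 across the 28 kinesins and -0.282 across all genes. Across the mitotic kinesins it was -0.760 with length and 0.801 with GC content, and across the transport kinesins -0.0218 and 0.908. The points are genes measured in the same 4 libraries and are no replicates. The exon 2 minus exon 3 knockout difference had a Pearson correlation of -0.825 with GC content across the same 28 genes, and -0.325 across all genes. After the GC and length correction, 6 of 28 kinesins were lower in all 4 pairs, against 23% of all genes, and 5 were higher, against 24.3%.

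**Figure D4:**
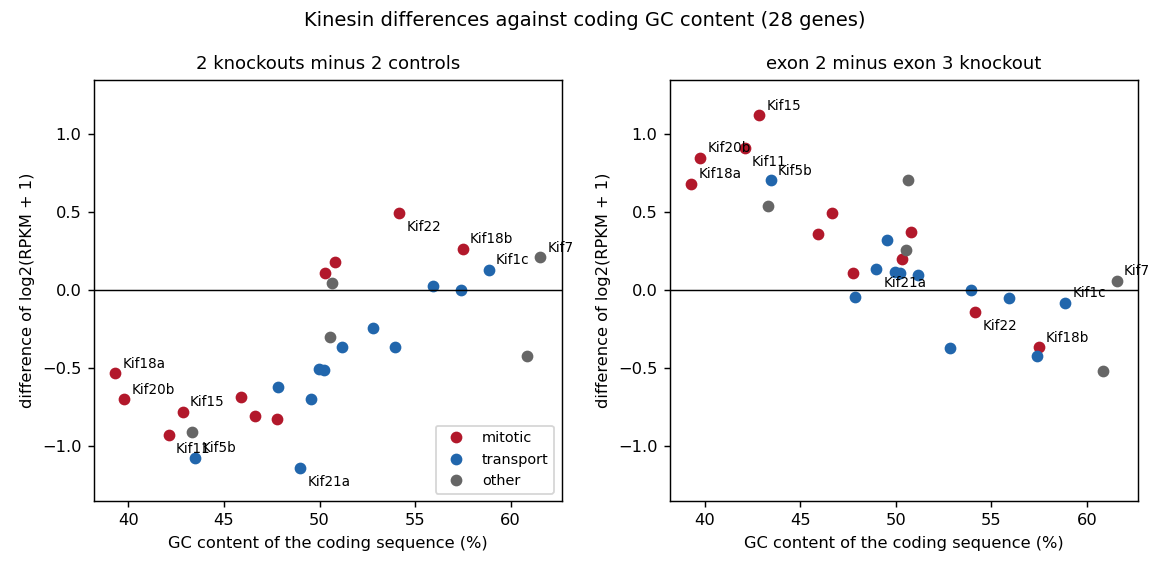
Differences on the log2(RPKM + 1) scale against the GC content of the coding sequence for 28 kinesins, as 2 knockouts minus 2 controls (left) and exon 2 minus exon 3 knockout (right). Genes of low GC content, among them Kif11, Kif15, Kif18a, Kif20b and Kif5b, lie low on the left and high on the right.

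The 2 controls differed in mitotic kinesins by about as much as the knockouts differed from them. The vector control was above the parental line for 11 of 11 mitotic kinesins, with a median log2 difference of 0.64, against 63.4% of all genes and a median of 0.16. Once GC content and length were corrected for, the median was 0.64 and 10 of 11 were higher. Kif20a was 1.99 times as high in the vector control as in the parental line. Transport kinesins were split, 6 higher and 6 lower, with a median of 0.01 that was -0.10 after scaling by median ratios. By at least 2-fold on the log2(RPKM + 1) scale, 0 kinesins were higher (3.34% of all genes) and 1 was lower (5.19%), namely Kif6. On the ratio of RPKM with no pseudocount, 0 were higher (5.12%) and 3 were lower (6.77%), namely Kif5c, Kif6 and Kif21b. The mitotic spindle and midzone genes listed below were higher in the vector control for 19 of 20 members, with a median of 0.51. The dynein and dynactin genes listed below were higher for 18 of 19 tested and lower for 1, with a median of 0.29. So a rise in most members was not particular to mitotic genes. After the GC and length correction, 19 of the 20 spindle genes were higher (median 0.26), and 12 of the 19 dynein and dynactin genes (median 0.05).

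The 2 knockouts differed from each other in the same group. The exon 2 knockout was above the exon 3 knockout for 9 of 11 mitotic kinesins, with a median of 0.37, and for 20 of 28 kinesins, against 54.4% of all genes and a median of 0.05. By at least 2-fold on the log2(RPKM + 1) scale, 1 kinesin was higher (Kif15) and 0 were lower, against 2.57% and 2.43% of all genes. On the ratio of RPKM with no pseudocount, 4 were higher (Kif6, Kif11, Kif15 and Kif20b) and 1 was lower (Kif19a), against 5.6% and 4.25% of all genes, and Kif15 was 3.21 times as high. For the mitotic kinesins the median was 0.15 after the GC and length correction, with 7 of 11 higher. These are differences between single libraries with no replicate check. Against the parental line, the mitotic median was -0.80 with exon 3 edited and 0.06 with exon 2 edited. Against the vector control these were -0.91 and -0.53. For the transport kinesins all 4 such medians lay between -0.49 and -0.42.

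**Figure D5:**
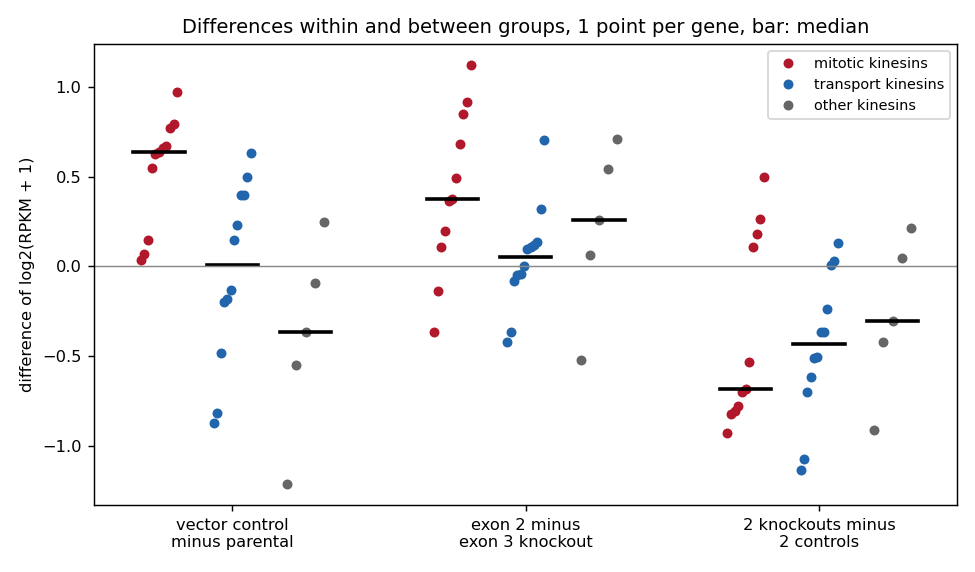
Log2(RPKM + 1) differences of the tested kinesins between the controls, between the knockouts, and of the 2 knockouts minus the 2 controls, 1 point per gene with the group median as a bar. The median of the mitotic kinesins was 0.64 between the controls and 0.37 between the knockouts, beside -0.68 for knockouts minus controls.

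Genes that work with the kinesins were read from lists of their partners. Of the 20 mitotic spindle and midzone partners, 0 passed the adjusted threshold, 11 had a log2 change below 0 and 9 above it, and the median was -0.22, which was 0.15 after the GC correction. Mki67, a coat of mitotic chromosomes, was at 18.2, 32.2, 7.57 and 11.6 RPKM (log2 change -1.28, or -0.33 after the GC and length correction), and Ect2, which binds centralspindlin, at 25.9, 45, 13.8 and 20.8 RPKM (log2 change -0.97, or -0.22 so corrected). The spindle kinase Aurka was at 52.4, 75.6, 90.4 and 86.2 RPKM (log2 change 0.48, or 0.50 so corrected). Incenp, a subunit of the chromosomal passenger complex, was at 25, 34.3, 41.7 and 45.1 RPKM (log2 change 0.55, or 0.59 so corrected). So spindle genes lay on both sides of the controls, as Kif11 and Kif22 did. Their promoter windows held TTTGAA in 14 of 19 cases (73.7%).

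A list of 16 genes held C-terminal kinesins, light chains and adaptor subunits, and with them Cenpe, Rhot1 and Rhot2. Of these 16 genes, 0 passed the adjusted threshold, with 8 below 0 and 8 above it. Their median was 0.05, and it was -0.13 over members with a mean of at least 5 RPKM. Cenpe, the kinetochore kinesin whose symbol the rule does not match, was at 9.25, 17.9, 3.35 and 4.03 RPKM and had a log2 change of -1.57 (SE 0.38, limma's adjusted p = 0.105) that was -0.53 after the GC and length correction. Trak2, a mitochondrial adaptor of kinesin-1, was at 20, 22.9, 8.54 and 7.94 RPKM, with a log2 change of -1.28 that stayed at -1.08 after that correction. Mapk8ip3, another kinesin-1 adaptor, was at 31, 12.4, 50.6 and 33.9 RPKM (log2 change 1.04, or 1.13 so corrected). Kifc5b was at 2.46, 1.83, 3.95 and 4.23 RPKM (log2 change 0.70, or 0.57 so corrected), and is uncertain because it shares near-identical sequence with Kifc1.

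Dynein is the motor that runs the other way along microtubules, with dynactin as its cofactor. Of 21 listed genes of cytoplasmic dynein, dynactin and their regulators, 19 were tested and 0 passed the adjusted threshold. The log2 change was below 0 for 12 and above it for 7, with a median of -0.14 that was 0.12 after the GC correction. The light chain Dynlt3 was at 53, 56.5, 23.5 and 38.3 RPKM (log2 change -0.84, or -0.60 after the GC and length correction). The light intermediate chain Dync1li2 was at 25.5, 36, 22.5 and 18.5 RPKM (log2 change -0.55, or -0.41 so corrected). The dynactin subunit Actr1a was at 72.7, 89.1, 104 and 98 RPKM (log2 change 0.33, or 0.30 so corrected). Dctn3, also of dynactin, was at 60.9, 91.9, 111 and 90.9 RPKM (log2 change 0.42, or 0.13 so corrected). Dync1i1 and Dynlt1b were listed at 0.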

How the data were processed

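The authors deposited 1 table of RPKM values, with 1 column per library. The submitters' processing notes name CASAVA 1.8 and GSNAP and the build GRCm38, and how reads were assigned to genes is not given in the sources used here. The labels name a stranded total RNA kit, and the study's methods an RNA kit without those words. From the ratios of RPKM between libraries, whole reads were recovered for 100% of the 15405 genes above 0, to within 0.001 reads. Genes with a mean of at least 1 RPKM were tested on log2(RPKM + 1) with limma 3.58.1 (R 4.3.3), trend on, the 2 knockouts against the 2 controls, with Benjamini-Hochberg adjusted p-values over all genes. A log2 change on this scale understates the change of low genes. The script was tested on simulated data. Coding GC content and length came from GENCODE M21 and were corrected for by a lowess fit (fraction 0.3) per library. Promoter windows came from RefSeq. The RPKM of every tested kinesin was named, with SE and adjusted p for the 5 most negative and 5 most positive, and from each partner list the 2 genes at either end. Members and lists were chosen with earlier results of these data known. Alternatives were another pseudocount (0.1), scaling, filter or model, and leaving out each library.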

Additional observations from a re-analysis of the deposited data

How the results depend on the processing

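No kinesin passed the adjusted threshold under any alternative that kept all 4 libraries. Leaving out 1 library gave 0 to 2 kinesins passing and 3 to 788 of all genes, and the 2 kinesins, Kif5b and Kif11, passed without the parental line. The 2 genes that passed among all genes became 1 with a pseudocount of 0.1 or quantile scaling, 32 with a mean of at least 5 RPKM, 285 with a robust prior, and 0 with median ratio scaling, no filter, voom or either composition correction. S100a4 passed at -2.20 with quantile scaling, at -1.88 with the filter of 5 RPKM or the robust prior, and lay between -2.08 and -1.67 with 1 library left out. The 6 kinesins with an unadjusted p under 0.05 became 3 (quantile), 1 (GC) and 0 (GC and length), and 1 to 7 with 1 library left out.

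The mitotic median was -0.29 with the filter of 5 RPKM, 0.0428 (GC), 0.21 (GC and length) and -0.87 to -0.22 with 1 library left out. The transport median was -0.55 (pseudocount 0.1), -0.35 (median ratio), -0.15 (quantile), -0.37 (no filter), -0.51 (filter of 5), -0.28 (GC), -0.10 (GC and length) and -0.49 to -0.43 with 1 library left out. Between the controls it was -0.10 (median ratio), -0.0208 (quantile), -0.0045 (no filter), 0.23 (filter of 5), -0.12 (GC) and 0.14 (GC and length), and between the knockouts -0.0397 (quantile), 0.11 (filter of 5) and -0.0418 (GC and length). The median of all tested kinesins was -0.17 (quantile), -0.21 (GC), 0.0203 (GC and length) and -0.56 to -0.34 with 1 library left out, between the controls 0.0755 (median ratio), 0.45 (filter of 5) and 0.0071 (GC), and between the knockouts -0.0084 (GC and length). The list with C-terminal kinesins was at 0.26 (quantile), -0.13 (filter of 5) and -0.11 to 0.0917 with 1 library left out, the mitotic partners at 0.15 (GC), 0.15 (GC and length) and -0.32 to -0.09, and dynein and dynactin at 0.12 (GC), 0.0897 (GC and length) and -0.29 to -0.0229.

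Kinesins 2-fold apart in all pairs numbered 2 with a pseudocount of 0.1, 2 on the ratio of RPKM with no pseudocount (an alternative chosen after seeing the data) and 0 to 4 with 1 library left out. Between the controls there were 3 with that pseudocount, 3 on the RPKM ratio and 0 with the filter of 5 or a 3-fold threshold, and between the knockouts 4 with that pseudocount, 5 on the RPKM ratio and 0 with the filter of 5, either correction or a 3-fold threshold. Shares of all genes are given above for the RPKM ratio only. The counts under the other settings here cannot be set against a background.

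Single genes changed sign under the GC correction (Kif1c -0.0714, Kif3c -0.0946, Kif7 -0.0046, Kif18a 0.22, Kif20b 0.0428, Kif21b -0.17), under the GC and length correction (Kif4 0.0280, Kif13b 0.0872, Kif15 0.11, Kif18a 0.36, Kif20b 0.35, Kif24 0.0866) or with quantile scaling (Kif13b 0.11). With 1 library left out, a sign changed for Kif2c (-0.15 to 0.52), Kif3c (-0.29 to 0.34), Kif5c (-0.77 to 0.0437), Kif6 (-0.56 to 0.66), Kif7 (-0.0642 to 0.49), Kif13b (-0.48 to 0.0018), Kif18b (-0.0092 to 0.54), Kif20a (-0.38 to 0.59) and Kif21b (-0.43 to 0.44). A lone library left in a group was assumed to vary like the others. The cause was not tested. No paired analysis was possible because the labels carry no replicate numbers. With 2 libraries per group and 14728731 to 20569762 reads in genes, low members rest on few reads.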
